A study of Mus musculus with 9 samples.

Results

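Receptors and regulators that sense products of the gut flora were followed in mouse splenic monocytes: the aryl hydrocarbon receptor Ahr with its feedback genes Ahrr and Tiparp, the membrane receptors Ffar2, Hcar2, Gpr84 and Gpbar1, and the nuclear receptors Vdr, Rxra and Rara. These 10 genes were taken by name from the 46072 genes of the deposited tables. Monocytes came from the spleens of female C57BL/6 mice aged 8 to 10 weeks, with 3 biological replicates in each of 3 groups, and mRNA was sequenced without stimulation in culture. The Con group was gavaged with water for 6 days, the Van group with vancomycin at 2 mg per mouse per day for 6 days, and both then rested without antibiotic, for 6 to 8 days by the labels and for 8 days in the study's account of the sequenced mice. The VanLip group had the same vancomycin course and rest, and also received L654, a lipodipeptide of bacterial origin that is a TLR2 ligand, by the retro-orbital route on days 7, 9 and 11. There was no group given water and L654, so the lipid was studied only in mice that had received vancomycin. The study's account of the sequenced mice names no injection for Con and Van, although its timeline has PBS as the control injection. If they received none, injection and handling cannot be told apart from the lipid. The comparisons ask whether monocytes outside the gut carry different amounts of these sensors after oral vancomycin, and whether the lipid changes them.

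As background, AHR is a transcription factor held in the cytosol by HSP90 and co-chaperones. On binding a ligand, such as an indole made by bacteria from tryptophan, it enters the nucleus, pairs with ARNT and binds a short DNA core. Ahrr, the AHR repressor, competes for ARNT, and Tiparp, an ADP-ribosyltransferase, dampens AHR itself, so both are induced by the receptor and limit it. Short-chain fatty acids from fermentation act on G protein-coupled receptors, among them FFAR2 for acetate and propionate and HCAR2 for butyrate and niacin. GPR84 responds to medium-chain fatty acids and GPBAR1 to bile acids, which bacteria modify in the gut. VDR and RARA bind vitamin D and retinoic acid as heterodimers with RXR proteins such as RXRA, and VDR can also bind the secondary bile acid lithocholic acid.

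The promoters below are shown because Ahrr and Tiparp are the members known as targets of AHR, whose DNA core is the word GCGTG. Each runs from 250 bases before to 50 bases after the start site, 5′ to 3′ on the gene's own strand, and was taken from RefSeq on GRCm38.p6. Capitals mark GCGTG, or CACGC where the core lies on the other strand.
Ahrr, chr13:74292282-74292581, minus strand: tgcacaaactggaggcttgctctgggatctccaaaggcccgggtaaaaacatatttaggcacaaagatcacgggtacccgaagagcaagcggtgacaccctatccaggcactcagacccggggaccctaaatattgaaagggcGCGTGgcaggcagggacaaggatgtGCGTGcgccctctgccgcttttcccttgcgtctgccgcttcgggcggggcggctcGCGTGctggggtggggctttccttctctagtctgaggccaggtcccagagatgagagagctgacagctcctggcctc
Tiparp, chr3:65528197-65528496, plus strand: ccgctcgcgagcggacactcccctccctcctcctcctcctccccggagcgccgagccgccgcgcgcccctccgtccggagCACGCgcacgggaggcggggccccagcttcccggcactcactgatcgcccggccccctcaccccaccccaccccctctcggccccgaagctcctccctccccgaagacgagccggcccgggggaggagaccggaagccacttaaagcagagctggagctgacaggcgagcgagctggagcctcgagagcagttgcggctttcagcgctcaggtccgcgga
The Ahrr window held 3 cores, at −107, −82 and −27 from the start site, of which 1 fell in the longer word TNGCGTG. The Tiparp window held 1 core, on the opposite strand at −170, and no TNGCGTG. On both strands, GCGTG occurred in 32.4% of the 32851 promoters of the same length and TNGCGTG, which contains it, in 5.07%. The listed promoters of Ffar2, Vdr and Rara held the core at −214 (Ffar2), −79 (Vdr), and −240 and 22 (Rara), counted from the start site of the promoter concerned, and those of Gpbar1, Gpr84 and Rxra held none. Both Rara cores fell in TNGCGTG, so the longer word was not particular to Ahrr. The other listed promoters of Ffar2 and Rara held no core, and no promoter was listed for Ahr or Hcar2. A match is a word in a window and no evidence of binding.

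All 10 genes are annotated as protein coding on GRCm38. Ahr lies at chr12:35497974-35535038 on the minus strand, Ahrr at chr13:74211118-74292331 on the minus strand, and Tiparp at chr3:65528410-65555518 on the plus strand. The membrane receptors are compact genes, with Ffar2 at chr7:30818348-30823775, Gpr84 at chr15:103308235-103310612 and Hcar2 at chr5:123863570-123865499, all on the minus strand, and Gpbar1 at chr1:74278550-74279624 on the plus strand. Of the nuclear receptors, Vdr lies at chr15:97854425-97910630 on the minus strand, Rxra at chr2:27676440-27762957 and Rara at chr11:98927818-98974942, both on the plus strand. Exons of Ahr, Tiparp and Gpr84 overlap exons of a non-coding gene on the opposite strand (Gm48236, 4931440P22Rik and Gm49482). The study names a stranded mRNA library kit. Whether the counting used strand is not given in the sources used here, so it is not known whether reads of those partners were kept apart from the members.

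The libraries held 43070361 to 61383806 expected counts in Con and Van and 170503470 to 184720704 in VanLip, and detected 19991 to 20508 and 22117 to 22770 genes. The commonest low count was 1.33 in all Con and Van libraries and 2 in all VanLip libraries. These are the values of 1 read of 100 and of 150 bases under the read length of 75 that the conversion to counts assumes, although the series text gives 100 bases for all libraries. Depth, and read length if it did differ, cannot be told apart from the VanLip group. Monocyte marker genes summed to 9472 to 12540 FPKM (a level per length of transcript that is corrected for library size), with all 12 above 0 in every library. Markers of red pulp macrophages (8 of 8 above 0; 1433 to 1747 in Con, 1674 to 2267 in Van, 1387 to 1825 in VanLip) were also present, whereas NK cell markers summed to under 0.85 FPKM and the neutrophil gene Ly6g was listed at 0 throughout. The 6 erythroid markers, mostly globins, summed to 99.61 to 202.5 in Con, 342.6 to 771.5 in Van, and 278.4, 1162 and 1085 in VanLip replicates 1, 2 and 3. B cell markers, nearly all of the sum being Ighm, summed to 335.3 to 393.2 in Con, 250.9 to 276.4 in Van and 257.3 to 320.2 in VanLip. Neutrophil markers, led by Mmp8, summed to 13.64 to 37.24 and dendritic cell markers, led by Cd209a, to 25.1 to 47.89 over the 9 libraries. The dendritic cell genes Clec9a (2.227 to 3.027 FPKM in Con, 1.114 to 1.826 in Van), Xcr1 (0.5316 to 0.6718, 0.3074 to 0.3684) and Siglech (1.297 to 1.524, 0.6092 to 1.107) were lower in all Van than in all Con libraries, Flt3 was higher (7.227 to 8.811, 9.115 to 10.27), and Cd209a and Zbtb46 overlapped. In bulk RNA, a change in the number of cells of a type cannot be told apart from a change in RNA per cell.

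The 10 genes fell into an abundant and a scarce set. Averaged over the 9 libraries, Rara stood at 87.6 FPKM, above 97.3% of the 26108 detected genes, followed by Rxra at 34.3, Tiparp at 26.3, Hcar2 at 16.5 and Ahr at 14.4. Ffar2 (1.23 FPKM) and Gpr84 (1.19) lay near the middle of the detected genes, Vdr (0.463) and Ahrr (0.414) just below it, and Gpbar1 (0.0425) near the limit of detection. Rara was above every other member in every library. The next neighbours overlapped in their ranges over libraries: Rxra (32.2 to 40.0) with Tiparp (18.2 to 32.6), Tiparp with Hcar2 (11.8 to 20.6), and Hcar2 with Ahr (9.01 to 21.1). Ffar2 (0.675 to 1.80) could not be ranked against Gpr84 (0.761 to 1.74), nor Vdr (0.392 to 0.616) against Ahrr (0.213 to 0.4999), but each pair was separate from the next. Thus the monocyte samples held more RNA, per length, for the retinoid receptor pair and for the butyrate receptor Hcar2 than for the acetate receptor Ffar2, the vitamin D receptor or the bile acid receptor.

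**Figure D1:**
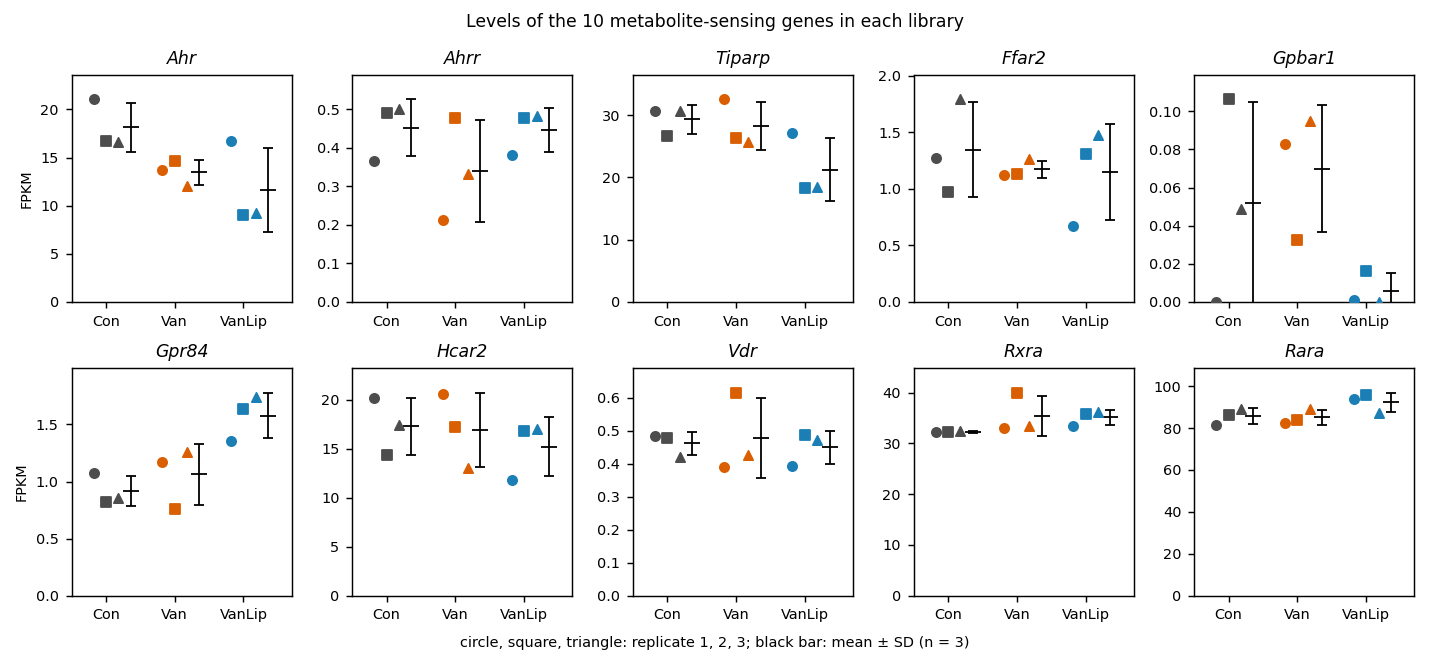
FPKM of the 10 genes in each of the 9 libraries (y axis, linear from 0, a separate scale for each gene), with points for single libraries and bars for the mean ± SD of 3; the Gpbar1 Con bar is cut at 0. Ahr is lower in all 3 Van than in all 3 Con libraries, Gpr84 is highest in VanLip, and VanLip replicate 1 stands apart for Ahr, Tiparp and Ffar2.

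Few of the 10 genes differed between groups by the DESeq2 Wald test, with p adjusted over all genes and the limit for a call set at 0.05. Between Van and Con, none of the 10 was called (none at an unadjusted p under 0.05, and 0 by edgeR and by limma), where 4.34% of all genes tested were. Between VanLip and Con, 1 of 9 with an adjusted p was called, Gpr84 (3 at an unadjusted p under 0.05), against 6.67% of all genes. Between VanLip and Van, 0 of 9 were called (3 at an unadjusted p under 0.05, 0 by edgeR and 0 by limma), against 9.86% of all genes. The median log2 fold change of the members was −0.03, −0.07 and −0.02 in these contrasts, beside −0.01, 0.01 and 0.01 over all genes. The normalized counts of the groups did not overlap for 2 members in each contrast, Ahr and Rxra, then Gpr84 and Rxra, then Gpr84 and Gpbar1, where 15.8%, 18.8% and 21% of all genes showed such separation. With 10 members, these counts were close to the share among all genes.

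**Figure D2:**
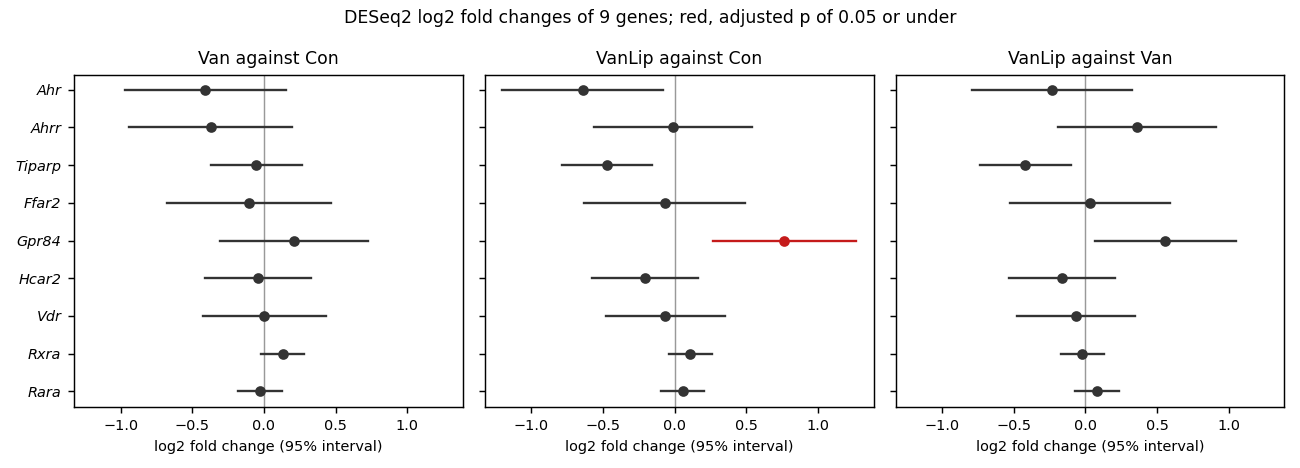
DESeq2 log2 fold changes (x axis) with 95% intervals for 9 genes in the 3 contrasts; Gpbar1, near the limit of detection, is left out. The only interval drawn in red, for an adjusted p of 0.05 or under, is that of Gpr84 between VanLip and Con, 0.27 to 1.27; the intervals of Rxra and Rara are the narrowest.

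Ahr, the receptor for indoles and other aryl ligands, was lower in every Van library than in every Con library, but not in every VanLip library. It measured 21.1, 16.7 and 16.6 FPKM in Con replicates 1 to 3 and 13.7, 14.6 and 12.1 in Van, or 18.1 ± 2.56 against 13.5 ± 1.28 (mean ± SD, n = 3). In VanLip it measured 16.7, 9.01 and 9.23, so that replicate 1 sat at the Con level and the other two below every Van library. The log2 fold change was −0.41 (SE 0.29, adjusted p = 0.566) between Van and Con, −0.64 (SE 0.29, adjusted p = 0.177) between VanLip and Con, and −0.23 (SE 0.29, adjusted p = 0.735) between VanLip and Van, so no contrast passed in the main fit of all 9 libraries by group. Of the other settings with all 9 libraries, 2 called Ahr between VanLip and Con, as given in the closing section. All 9 libraries share one estimate of the gene's spread. Without VanLip replicate 1, Ahr was called in all 3 contrasts, at −0.41 (adjusted p = 0.00755), −1.003 (adjusted p = 5.57e-13) and −0.59 (adjusted p = 9.92e-05). That library is the one whose Ahr value stood apart in its group, so leaving it out narrows the spread, and these calls are a description. No other left-out library gave a call. Without VanLip replicate 2 or 3, the contrast of VanLip with Van was −0.08 (adjusted p = 0.912 and 0.879) and that of VanLip with Con −0.49 (adjusted p = 0.227 and 0.131). With Con and Van alone in the fit, the contrast of Van with Con was −0.41, with an adjusted p of 0.00736.

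Tiparp, which ADP-ribosylates AHR and is induced by it, measured 30.7, 26.7 and 30.6 FPKM in Con, 32.6, 26.4 and 25.7 in Van, and 27.2, 18.2 and 18.4 in VanLip. Con and Van overlapped, while VanLip replicates 2 and 3 lay below all other libraries and replicate 1 lay among them. The log2 fold change was −0.05 (SE 0.16, adjusted p = 0.955) between Van and Con, −0.47 (SE 0.16, adjusted p = 0.0505) between VanLip and Con, and −0.42 (SE 0.16, adjusted p = 0.0787) between VanLip and Van. Without VanLip replicate 1, which stood apart in its group for Tiparp too, the last pair were −0.70 (adjusted p = 5.77e-07) and −0.65 (adjusted p = 3.51e-06), both called. The limit given for Ahr applies to them. The VanLip contrast with Con was also called without Van replicate 1, at an adjusted p of 0.0325.

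Ahrr, the repressor that competes with AHR for ARNT, was scarce and spread widely within groups. Its level was 0.367, 0.491 and 0.4999 FPKM in Con, 0.213, 0.477 and 0.332 in Van, and 0.382, 0.477 and 0.483 in VanLip. The 3 groups overlapped, with Van replicate 1 the lowest. The log2 fold change was −0.37 (95% interval −0.94 to 0.20) between Van and Con, −0.01 (−0.56 to 0.54) between VanLip and Con and 0.36 (−0.20 to 0.91) between VanLip and Van, and none was called. Set against the Con mean of its own normalized count, VanLip replicates 2 and 3 held 49.8% and 50.1% for Ahr, 61.2% and 61.7% for Tiparp, but 102% and 108% for Ahrr, and replicate 1 held 92.3%, 93.2% and 88.5%.

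**Figure D3:**
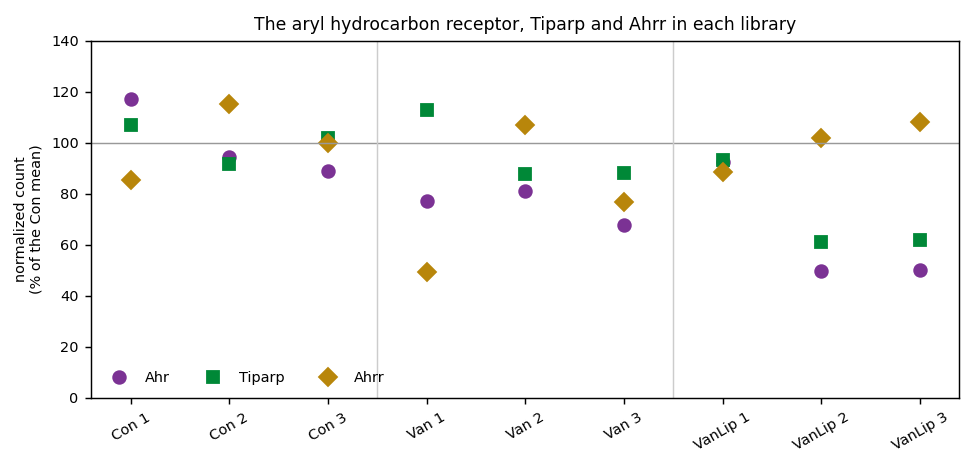
Normalized counts of Ahr, Tiparp and Ahrr in each library (x axis) as a percent of the gene's Con mean (y axis, from 0). VanLip 2 and 3 lie near 50% for Ahr and near 61% for Tiparp while Ahrr stays above 100%; VanLip 1 lies between 88.5% and 93.2% for all 3 genes.

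VanLip replicate 1 also stood apart in genes of other cells. Its erythroid sum of 278.4 FPKM lay below those of replicates 2 and 3 (1162 and 1085). Its platelet sum of 4.766 lay below 12.34 and 11.81, and its eosinophil sum of 9.382, mostly Ccr3, below 20.09 and 22.44 (Epx was at or near 0). Its T cell sum of 7.282 lay below 13.04 and 15.37, and was mostly Cd4 (4.849, beside 0.3777 for Cd3e). Its neutrophil sum of 37.24 lay above theirs (25.43 and 20.7) through Mmp8, at 33.79 against 21.15 and 14.83. S100a8 (1.759 against 2.541 and 1.997), S100a9, Cxcr2 and Retnlg were lower in it. Camp was higher (0.1184 against 0.0246 and 0.1064), and Ngp and Ltf lay between. The dendritic cell sum of 38.8 also lay above theirs (25.1 and 29.28), but Zbtb46 was lower (1.187 against 1.469 and 1.644). The monocytes had been isolated by negative selection with magnetic beads, which is meant to remove T cells, B cells, NK cells, neutrophils and eosinophils. Among the 12 monocyte markers, named here after their values were seen, it had the most Ccr2, a chemokine receptor of the inflammatory subset, at 256.3 FPKM (156.1 and 190.3 in replicates 2 and 3) and the most Fn1, fibronectin, at 646.8 (372.5 and 288.1). Ly6c2, which defines that subset, went the other way, at 399.2 against 419.1 and 451.1. Markers of the patrolling subset were lower in it, with Spn at 193.2 (268.6 and 242.9), Ace at 430.4 (620.7 and 526.6), Treml4 at 234.3 (286.3 and 273.6), Fcgr4 at 107.7 (150.7 and 123.6) and Cx3cr1 at 129.6 (139.2 and 166.3). Ccr2 stood at 158.6 to 173.4 in Con and 70.36 to 98.24 in Van. Fn1 (284.2 to 348.8 and 174.6 to 363.2), Ly6c2 (377.2 to 413.9 and 268.4 to 387.9) and the patrolling markers named above overlapped between Con and Van. The erythroid sum was higher, and the B cell sum lower, in all Van libraries, in which Ahr was lower, than in all Con libraries. The erythroid sum was highest in VanLip replicates 2 and 3, in which Ahr and Tiparp were lowest. Within Van the order ran the other way, replicate 2 having the highest erythroid sum (771.5) and the most Ahr and replicate 3 the lowest of both, and in VanLip replicate 1 the sum lay above every Con library while Ahr was at the Con level. The part of these and of the dendritic cell markers in the Ahr and Tiparp values was not tested.

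Gpr84, the medium-chain fatty acid receptor, rose between Con and VanLip. It measured 1.07, 0.825 and 0.854 FPKM in Con, 1.17, 0.761 and 1.25 in Van, and 1.35, 1.64 and 1.74 in VanLip, each VanLip library above each of the others. The group levels were 0.917 ± 0.135, 1.06 ± 0.264 and 1.58 ± 0.201 FPKM (mean ± SD, n = 3). The log2 fold change was 0.77 (SE 0.25, adjusted p = 0.043) between VanLip and Con, 0.56 (SE 0.25, adjusted p = 0.159) between VanLip and Van, and 0.21 (SE 0.26, adjusted p = 0.841) between Van and Con. These levels rest on 67.27 to 133.1 expected counts per library in Con and Van and on 444.9 to 610 in VanLip. The call was lost with edgeR (adjusted p = 0.129) and with limma on FPKM (0.148), and when any 1 library other than Van replicate 2 was left out (adjusted p between 0.0578 and 0.205). A further fit converted the expected counts of all libraries to fragments and then thinned VanLip to the fragment number of the other groups. In it the log2 fold change was 0.68 (adjusted p = 0.248). Con and Van counts also became smaller in that fit, so it does not isolate depth, which cannot be told apart from the group.

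**Figure D4:**
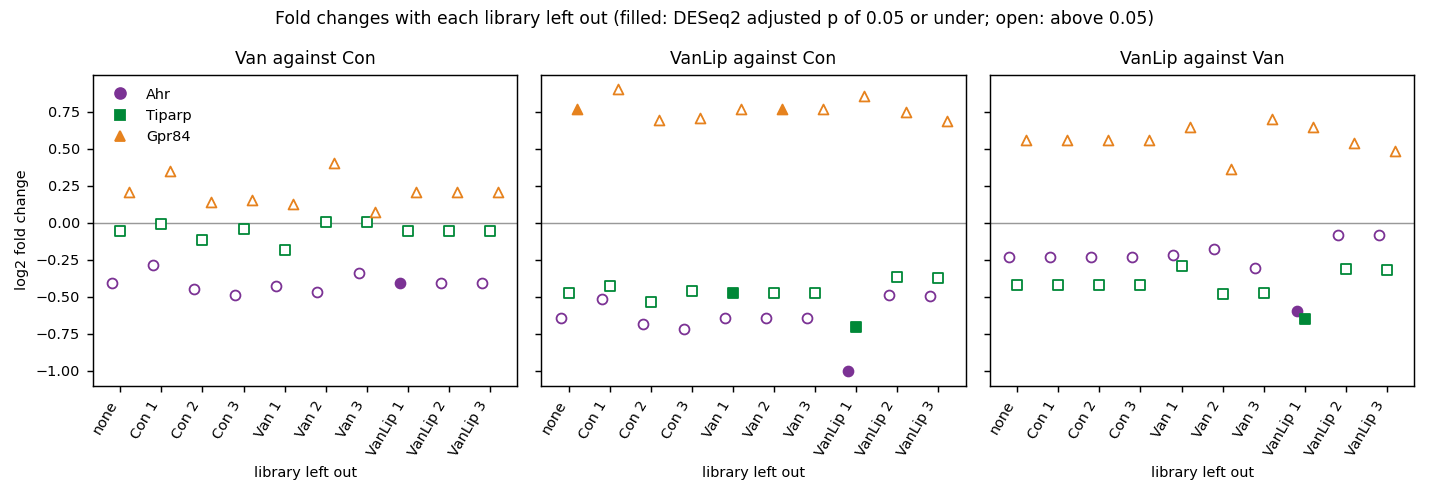
Log2 fold changes (y axis) of Ahr, Tiparp and Gpr84 in the 3 contrasts, with no library or 1 named library left out (x axis); filled points have a DESeq2 adjusted p of 0.05 or under. Leaving out VanLip replicate 1 takes Ahr between VanLip and Con from −0.64 to −1.003 and Tiparp from −0.47 to −0.70, while Gpr84 stays positive throughout but is filled in that contrast only with none or Van replicate 2 left out.

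The receptors for short-chain fatty acids gave no call. Hcar2, through which butyrate and niacin act on myeloid cells, measured 20.2, 14.3 and 17.4 FPKM in Con, 20.6, 17.2 and 13.1 in Van, and 11.8, 16.8 and 17.0 in VanLip. The groups overlapped, with VanLip replicate 1 the lowest of the 9. Its log2 fold changes were −0.04 (95% interval −0.41 to 0.33), −0.21 (−0.58 to 0.16) and −0.17 (−0.54 to 0.20) in the contrasts of Van with Con, VanLip with Con and VanLip with Van. Ffar2, the acetate and propionate receptor, measured 1.28, 0.971 and 1.80 FPKM in Con, 1.126, 1.134 and 1.263 in Van, and 0.675, 1.305 and 1.479 in VanLip. VanLip replicate 1 was again the lowest. Its log2 fold changes lay between −0.10 and 0.03, with 95% intervals that reached from −0.68 to 0.59, so a change of moderate size in either direction was not detectable here.

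Gpbar1, the membrane receptor for bile acids, was close to absent. Its expected counts were 0, 8.27 and 2.67 in Con, 6.53, 2.07 and 6.87 in Van, and 0.267, 3.61 and 0 in VanLip, where 1 fragment is worth 2.67 counts in Con and Van and 4 in VanLip. Every library thus held about 3 fragments or fewer in spite of the greater depth of VanLip. The VanLip values lay below all Van values after normalization, but no adjusted p was given for either VanLip contrast by DESeq2 (unadjusted p = 0.0387 and 0.0731 against Van and Con), and its fitted fold changes cannot be interpreted at this depth.

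None of the nuclear receptors was called in any contrast. Rara, the retinoic acid receptor, measured 81.4, 86.4 and 88.8 FPKM in Con, 82.3, 83.7 and 89.0 in Van, and 93.8, 95.9 and 87.3 in VanLip, with overlap in each contrast. Its log2 fold changes were −0.03, 0.05 and 0.08, with 95% intervals reaching from −0.18 to 0.24. Rxra, the common partner, measured 32.2, 32.2 and 32.5 FPKM in Con, 33.0, 40.0 and 33.4 in Van, and 33.4, 35.8 and 36.1 in VanLip. All Con libraries lay below all others, by little: the log2 fold change was 0.13 (SE 0.08, adjusted p = 0.446) for Van and 0.11 (SE 0.08, adjusted p = 0.49) for VanLip against Con. Vdr, the vitamin D receptor, measured 0.485, 0.479 and 0.421 FPKM in Con, 0.392, 0.616 and 0.427 in Van, and 0.393, 0.487 and 0.471 in VanLip, and its groups overlapped in each contrast. Its log2 fold changes were 0.00, −0.07 and −0.07, with 95% intervals within −0.48 and 0.43.

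The genes around these sensors were read from 7 lists holding 92 genes, of which 32 averaged under 0.1 FPKM and 10 were listed at 0 in every library. In the contrast of Van with Con, 5 of the 68 with an adjusted p were called (7.35%, beside 4.34% of all genes), 3 higher and 2 lower. Between VanLip and Con 2 of 66 were called (3.03%, beside 6.67%), 1 in each direction, and between VanLip and Van 4 of 66 (6.06%, beside 9.86%), 1 higher and 3 lower. The median log2 fold change of the lists together was 0.00, −0.02 and 0.00. The lists were compiled with earlier results of these data known, so their counts are a description.

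The aryl hydrocarbon list held most of the calls, 4 of 13 in the contrast of Van with Con, 0 of 13 between VanLip and Con (3 at an unadjusted p under 0.05 with DESeq2, 0 by edgeR), and 3 of 13 between VanLip and Van. Hsp90ab1, the HSP90 beta chaperone that holds AHR and many other clients, measured 307.4, 305.4 and 379.9 FPKM in Con, 466.5, 502.2 and 455.6 in Van, and 270.5, 324.2 and 331.4 in VanLip. Every Van library lay above all others. Its log2 fold change was 0.52 (SE 0.10, adjusted p = 5.2e-05) between Van and Con, −0.63 (SE 0.10, adjusted p = 3.71e-08) between VanLip and Van, and −0.11 (SE 0.10, adjusted p = 0.608) between VanLip and Con. Ptges3, the p23 co-chaperone of the same complex, had 29.93, 35.37 and 29.99 FPKM in Con, 43.41, 46.82 and 43.29 in Van, and 26.45, 30.57 and 31.04 in VanLip. It was likewise highest in the 3 Van libraries, with log2 fold changes of 0.48 (adjusted p = 0.000147), −0.61 (adjusted p = 3.18e-08) and −0.13 (adjusted p = 0.498). The first 2 contrasts share the Van libraries, so they are not independent of each other. Both genes were also called by edgeR, at an adjusted p of 0.0391 between Van and Con and 0.00616 (Hsp90ab1) and 0.00504 (Ptges3) between VanLip and Van, and both kept these calls when any 1 library was left out, but limma on FPKM did not call the contrast of Van with Con (adjusted p = 0.142 and 0.103). Arnt, the DNA-binding partner of AHR, was not called in any contrast and averaged 19.4 FPKM, between 17.97 and 21.43 in single libraries.

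Kmo and Kynu, of the same list, fell between Con and Van by DESeq2 alone. Kmo, kynurenine 3-monooxygenase, acts on kynurenine, a tryptophan product that can bind AHR. It measured 7.177, 5.504 and 5.712 FPKM in Con and 3.593, 4.497 and 3.834 in Van, without overlap, and its log2 fold change was −0.66 (SE 0.18, adjusted p = 0.0112). Kynu, kynureninase, measured 3.538, 2.813 and 2.994 in Con and 2.329, 1.998 and 1.705 in Van, with a log2 fold change of −0.62 (SE 0.20, adjusted p = 0.0446). The VanLip libraries ran from 3.597 to 5.363 for Kmo, which overlaps Van, and also Con in normalized counts, and from 2.288 to 3.23 for Kynu, which overlaps both. Neither gene was called between VanLip and Con (log2 fold change −0.40, adjusted p = 0.177, and −0.19, adjusted p = 0.666). Between Van and Con, edgeR called neither (adjusted p = 0.107 and 0.15) nor did limma on FPKM (0.232 and 0.227). Kynu was also lost with thinned fragments (0.144), a fit in which Con and Van counts were converted to fragments but not thinned. Of the 6 dendritic cell markers, 3 were lower and 1 higher in the same Van libraries, and their part was not tested. Kmo was no longer called when replicate 1 of Con or replicate 1 or 3 of Van was left out (adjusted p = 0.12, 0.0663 and 0.054), nor Kynu when any 1 Con library or replicate 2 or 3 of Van was (adjusted p between 0.0728 and 0.25). Gpr35, a G protein-coupled receptor for which kynurenic acid is a proposed ligand, stood at 96.36, 84.77 and 80.99 FPKM in Van and 74.21, 71.98 and 67.83 in VanLip, a log2 fold change of −0.30 (adjusted p = 0.00943). That call was lost without Van replicate 1 (adjusted p = 0.0738) and with edgeR (0.0572). The classical AHR target Cyp1a1 averaged 0.00752 FPKM, Cyp1b1 averaged 0.0754, and Cyp1a2 was listed at 0. Cyp1b1, at only 8.32 to 14.27 expected counts per library in Con, was higher in all Van and all VanLip libraries than in all Con libraries. Its log2 fold changes against Con were 1.31 for Van (adjusted p = 0.359) and 1.77 for VanLip (adjusted p = 0.0968), neither called by DESeq2.

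**Figure D5:**
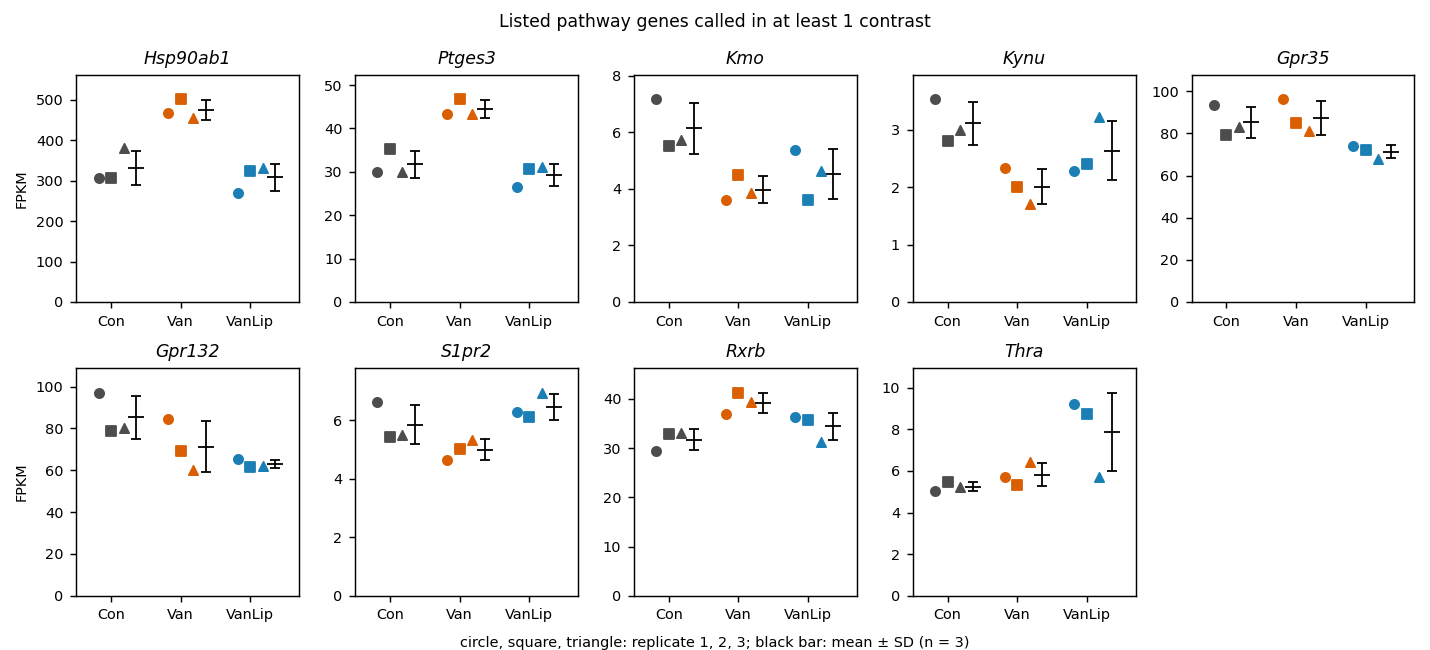
FPKM in each library (y axis, linear from 0, a separate scale for each gene) of the 9 listed genes called in at least 1 contrast, with points for single libraries and bars for the mean ± SD of 3. Hsp90ab1 and Ptges3 are highest in all 3 Van libraries; Kmo and Kynu are lower in all 3 Van than in all 3 Con libraries.

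The other lists gave 1 call at most in any contrast. Gpr132, a G protein-coupled receptor for lipids that is grouped with the metabolite receptors, fell between Con (97.08, 78.55 and 80.17 FPKM) and VanLip (65.29, 61.74 and 62.21), with a log2 fold change of −0.45 (SE 0.13, adjusted p = 0.013). The call was lost without Con replicate 1 (adjusted p = 0.153), without VanLip replicate 2 (0.0792) and with edgeR (0.104). In the same list Ffar3 and Hcar1, the relatives of Ffar2 and Hcar2, averaged 0.00674 and 0.00195 FPKM, and Olfr78 and the transporter gene Slc5a8 were listed at 0. Among bile acid genes, S1pr2, a receptor for sphingosine 1-phosphate and conjugated bile acids, rose between Van (4.631, 5.003 and 5.331) and VanLip (6.282, 6.101 and 6.937), by 0.36 on the log2 scale (SE 0.12, adjusted p = 0.0229). Its call was lost with edgeR (adjusted p = 0.0678) and thinned fragments (0.125), and without Van replicate 1 or 2 or VanLip replicate 1 or 3 (0.0678 to 0.151). The nuclear bile acid receptor Nr1h4 was listed at 0 and its target Nr0b2 averaged 0.00194, so 9 of the 13 genes of that list averaged under 0.1 FPKM.

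Rxrb, the paralogue of Rxra, rose between Con (29.34, 32.92 and 33.03 FPKM) and Van (37.02, 41.17 and 39.4), with a log2 fold change of 0.28 (SE 0.08, adjusted p = 0.0239). It was not called by edgeR (adjusted p = 0.114), nor without Con replicate 1 or 3 or Van replicate 2 or 3 (0.0673 to 0.171). Thra, a thyroid hormone receptor that pairs with RXR, had 5.046, 5.452 and 5.218 FPKM in Con and 9.191, 8.713 and 5.719 in VanLip, a log2 fold change of 0.55 (SE 0.17, adjusted p = 0.0292), with VanLip replicate 3 near the Con level. That call was lost with edgeR (adjusted p = 0.121) and thinned fragments (0.0805), and without any 1 Con library or VanLip replicate 1 or 2 (0.0804 to 0.197). Of the vitamin D list, the activating and degrading enzymes Cyp27b1 and Cyp24a1 were listed at 0 in all libraries, and none of the 2 of its 7 genes with an adjusted p was called by DESeq2, nor any by edgeR (0 at an unadjusted p under 0.05). The 11 genes for G protein coupling, led by Gnai2 at 442.5 FPKM and Gnas at 247, gave no call in any contrast by DESeq2 or edgeR, and 0 had an unadjusted p under 0.05.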

How the data were processed

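RNA from 9 libraries of splenic monocytes, 3 in each of the groups Con, Van and VanLip, was studied. Per the labels and the study's methods, the authors aligned paired reads to GRCm38 with HISAT2 2.2.1 and SAMtools 1.9 and assembled levels with StringTie 2.1.3. The authors deposited FPKM per gene, and expected counts that tximport derived from them for DESeq2 1.38.3. The annotation release and strand setting are not given in the sources used here. Here expected counts were rounded, scaled by median-of-ratios size factors and tested with DESeq2 1.42.0 (Wald test, all 9 libraries in 1 fit by group, R 4.3.3) with Benjamini-Hochberg adjustment over all genes. Where a symbol had several rows, the row with the highest mean FPKM was kept. Alternatives were edgeR 4.0.16 (quasi-likelihood), TMM size factors, a minimum of 10 counts in 3 libraries, no independent filtering, a replicate block, thinned fragments, only the groups compared, limma 3.58.1 on quantile-normalized log2(FPKM + 1), and each library left out. For thinned fragments, the expected counts of all libraries were converted to fragments, and only VanLip was then thinned, to the mean of the other groups.

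The 10 members are named throughout. Of the pathway lists, all genes called in any contrast are named; others may be, namely the most abundant, up to 4 a list, and those averaging under 0.1 FPKM. Members and lists were chosen with earlier results of these data known. The series text calls the replicates biological, and the study's methods give 3 mice in each group. Counting precision follows depth, which was higher in VanLip.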

Additional observations from a re-analysis of the deposited data

How the results depend on the processing

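Of 555 values of the 10 members under the alternatives, 495 kept their direction and their side of the threshold, 15 lost the call of Gpr84, 11 gained a call (Ahr or Tiparp) and 34 turned sign. None of the 34 had an adjusted p under 0.75. Members called in the contrast of Van with Con numbered 0, and 1 with only those groups in the fit. Between VanLip and Con they numbered 1, but 0 with edgeR, with no independent filtering and with each of 3 limma settings, and 2 with a replicate block. Between VanLip and Van they numbered 0, and 1 with the replicate block. With 1 library left out the counts were 0 to 1, 0 to 2 and 0 to 2, the highest without VanLip replicate 1. Pathway genes called numbered 5, 2 and 4; edgeR gave 2, 0 and 2, limma 0, 0 and 2 (1 with a pseudocount of 0.1), thinning 1 between VanLip and Con, only the groups compared 4 in that contrast, and the replicate block 7 between VanLip and Van. With 1 library left out they numbered 2 to 6, 0 to 5 and 3 to 6. The cause of these shifts was not tested.

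On the log2 scale, the values that turned sign lay within 0.197 of 0. Ahrr between VanLip and Con was 0.0116 with TMM, 0.00128 with the replicate block, 0.0119 with limma and 0.035 with limma and a pseudocount of 0.1. Ffar2 between VanLip and Van was −0.017 with the replicate block, −0.0378 with limma, −0.0908 with limma and a pseudocount of 0.1 and −0.0332 with limma at a mean FPKM of at least 1. Vdr between Van and Con was −0.00606 with the replicate block and −0.015 with thinned fragments. Vdr between VanLip and Con was 0.00549 with limma and 0.0142 with limma and a pseudocount of 0.1. Rxra between VanLip and Van was 0.000508 with TMM. With 1 library left out, the values that crossed 0 ranged from −0.118 to 0.1 for Ahrr between VanLip and Con, −0.182 to 0.00809 for Tiparp between Van and Con, −0.300 to 0.194 for Ffar2 between VanLip and Con, −0.197 to 0.295 for Ffar2 between VanLip and Van, −0.137 to 1.45 for Gpbar1 between Van and Con, −0.216 to 0.113 for Hcar2 between Van and Con, −0.319 to 0.0105 for Hcar2 between VanLip and Van, −0.162 to 0.104 for Vdr between Van and Con, −0.14 to 0.00956 for Vdr between VanLip and Con, −0.169 to 0.0969 for Vdr between VanLip and Van, −0.0631 to 0.0566 for Rxra between VanLip and Van and −0.0641 to 0.00238 for Rara between Van and Con. The fitted values of Gpbar1 cannot be interpreted at its depth.

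Replicate numbers are shared between groups, but deviations from the group means correlated by only −0.0657 to 0.124 between libraries of the same number, so no pairing was assumed. With the replicate block, Ahr and Tiparp were called between VanLip and Con (−0.68, adjusted p = 0.000878, and −0.50, adjusted p = 0.000308) and Tiparp between VanLip and Van (−0.43, adjusted p = 0.00148), and Gpr84 was not (adjusted p = 0.119). Among pathway calls the replicate block lost Kynu (adjusted p = 0.0959) and Rxrb (0.0706) between Van and Con, Thra between VanLip and Con (0.0692) and S1pr2 between VanLip and Van (0.0621). With fragments thinned, Ahr was called between VanLip and Con (−0.65, adjusted p = 0.0382). Counts were fewest for Gpbar1, and 67.27 to 169.9 per library in Con and Van for Gpr84, Ahrr, Vdr and Ffar2.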
